A study of Mus musculus with 6 samples.

Results

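The measurements described here are 4 of the 6 bead arrays of a study that switched on Sox17 in mouse embryonic stem cells. They come from a pair of independently derived cell lines with a doxycycline-inducible Sox17, each read on 1 array with the drug (Sox17_dox) and on 1 array without it (Sox17_untreated). The line whose label carries no number is called line 1, and the other is numbered line 2 by the authors. Induced cells received 1 µg/mL doxycycline over 5 days, and all cells grew in medium with serum and LIF, a cytokine that keeps mouse embryonic stem cells undifferentiated, without feeder cells. Control KH2 embryonic stem cells, on 1 array with and 1 array without doxycycline (dose not given in the sources used here), serve as context only. What drives Sox17 in the lines, and whether a line is 1 clone, is not given in the sources used here either. The comparison is paired within each line: every change is the induced array minus the untreated array of that line, on the log2 scale of normalised signal. A probe entered where its detection p-value, the share of negative-control beads at least as bright, was under 0.05 on at least 2 of the 4 arrays, which left 12072 of 25697 probes. Of these, 10727 were detected on all 4 arrays. The 665 probes detected on exactly 2 arrays had a median log2 signal of 5.68, and the 830 probes detected on exactly 1 array, which were left out, had a median of 5.50.

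Sox17, a SoxF protein, binds DNA and acts in primitive endoderm and later in definitive endoderm. Primitive endoderm is the layer of the blastocyst that lies next to the pluripotent epiblast and forms the yolk sac. It is specified through FGF signalling and Gata6, carries the receptor Pdgfra, and gives rise to parietal endoderm, which secretes a thick basement membrane of type IV collagen and laminin, and to visceral endoderm, which carries nutrients and lipoproteins. Embryonic stem cells correspond to epiblast, and forced expression of endoderm factors is a common way to ask which genes of the endoderm programme can be switched on in them.

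Between 11657 and 11957 probes were detected per array of the inducible lines, and the median raw signal was 109 to 118 intensity units. The embryonic stem cell markers Pou5f1, Nanog, Sox2, Zfp42, Esrrb, Dppa5a and Tdgf1 were detected on all 4 arrays. Eomes, Gsc, Mixl1, Cxcr4 and Foxa2 of mesendoderm and definitive endoderm, Sox1 and Pax6 of neuroectoderm, Cdx2 and Elf5 of trophoblast and Cdh5 and Kdr of endothelium were detected on none of them. Other genes of those lists were detected on all 4, among them Hhex of endoderm and Nes of neuroectoderm. So were Tfap2c, Krt7, Krt19 and Psg23 of trophoblast, and Pecam1, Flt1, Tek and Ets1 of endothelium. Sox17 has a pair of probes on the array. The brighter stood at 5.26 untreated and 5.61 induced for line 1 and at 5.60 and 6.47 for line 2, and was above detection on the induced line 2 array alone. The other was above detection on none of the 4 arrays. Neither probe entered the test, and the part of the transcript they target was not given, so these values do not check the labels.

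The question of the comparison was which transcripts differed when Sox17 was induced, with each line as its own control. Gata6, the GATA factor needed for primitive endoderm, gave the 1 probe of 12072 (0.00828%) that passed the test, and it rose in both lines. The test was limma with the line as a block, two-sided, with Benjamini-Hochberg adjustment over all probes tested. With 1 residual degree of freedom, the spread of each probe was taken mostly from all probes together (prior 6.54 degrees of freedom, prior SD 0.175). At an unadjusted p under 0.05 there were 1662 probes, where 604 would be given by chance in independent probes. Other differences are therefore given as sizes in each line, as higher or lower, with their adjusted p where they are described in full.

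Each gene was represented by the probe with the highest mean signal. Of 8408 genes, 7557 were detected on all 4 arrays. Among the latter, 10 (0.132%) reached a 2-fold increase in each line and 7 (0.0926%) a 2-fold decrease in each. The 10 were Gata6, Fbp2, Slc44a1, Stard8, Fbln2, Tbx3, Foxq1, Itga11, Htra1 and Hbegf, and the 7 were Spink1, Cntnap2, Actn3, Rab33a, Pla2g1b, Lefty1 and Lefty2, with Pinx1 in both lines near that size. At 1.5-fold there were 76 (1.01%) higher and 50 (0.662%) lower in both lines. None of the 17 genes was 2-fold different in the same direction in KH2. Few genes were: 39 of 8408 genes tested (0.464%) were 2-fold higher in KH2 and 128 (1.52%) lower, so nothing is read from this. Hbegf (0.76) and Lefty2 (-0.92) came near that size in KH2. Taking the change of KH2 off each line, an alternative chosen after seeing the data, gave 34 higher and 17 lower genes, which shared 4 and 2 genes with the sets above.

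**Figure D1:**
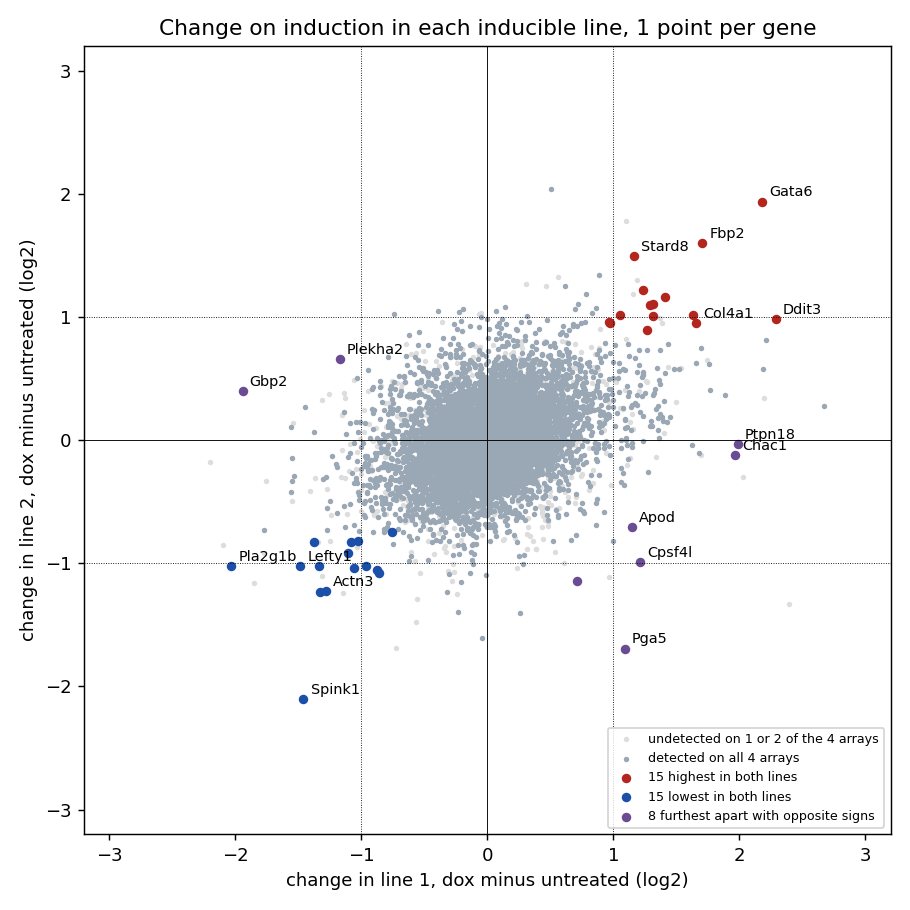
Each point is 1 gene, with its change in line 1 on the x axis and in line 2 on the y axis, both as log2 of induced minus untreated, and dotted lines at a 2-fold change. Red points are the 15 genes highest in both lines, led by Gata6 at 2.18 and 1.94, blue points the 15 lowest, led by Spink1 at -1.46 and -2.10, and purple points the 8 genes furthest apart with opposite signs.

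Among transcription factors and receptors of primitive endoderm, Gata6 was highest in both lines. Gata6 went from 6.25 to 8.43 in line 1 and from 7.77 to 9.71 in line 2. Both induced arrays lay above both untreated arrays, while KH2, at 6.29 without and 6.59 with the drug, stayed near untreated line 1. The mean within-line change of Gata6 was 2.06 ± 0.17 (limma's SE, n = 2 lines, adjusted p = 0.0377). Here and below, the SE rests mostly on the spread of all probes together and does not measure the spread between the 2 lines. The call was lost with the authors' processed values (adjusted p = 0.129), with no filter on dim probes (0.368), with the KH2 change taken off (0.478) and without the line as a block (0.958). In cultures measured whole, more cells with a transcript and more of it per cell cannot be told apart. Pdgfra, the platelet-derived growth factor receptor that marks primitive endoderm, was detected on both induced arrays (6.01 and 6.71) and on neither untreated array (4.91 and 4.93), nor on either KH2 array. Against the lowest signal detected on the untreated arrays it was at least 1.64-fold higher (mean 6.36 against 4.92, adjusted p = 0.0901). It entered the fit only through the arrays where it was high, so this p supports nothing.

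Foxq1, a forkhead transcription factor, read 5.84 and 7.13 in line 1 and 7.07 and 8.17 in line 2, so that its induced line 1 array lay only just above the untreated line 2 array. Its mean change was 1.19 ± 0.17 (adjusted p = 0.0854). Thbd, the thrombomodulin gene of parietal endoderm and endothelium, read 5.09 and 6.46 in line 1, where the untreated array was below detection, and 5.67 and 6.65 in line 2. Tbx3, a T-box factor of naive pluripotency and of primitive endoderm, was at 7.66 and 8.98 in line 1 and at 9.08 and 10.19 in line 2, a mean change of 1.21 ± 0.17 (adjusted p = 0.0854). The groups overlapped for Tbx3, since untreated line 2 lay above induced line 1, and its other tested probes differed by 0.04 and 0.46, and by 0.89 and 0.65. Gata4 differed by -0.20 in line 1 and by 0.46 in line 2, and the endocytic adaptor gene Dab2 by -0.07 and 0.72. Sox7, the SoxF relative, was above detection on the induced line 2 array alone and was not tested. Of the 8 tested genes in the list of primitive endoderm regulators and receptors, 5 were higher in both lines and 0 lower, where 29.6% of all genes were higher and 31.1% lower in both. Pdgfra is among the 5, but it entered only through the arrays where it was high and lends the count no support. The list's median was 0.75, or 0.52 with Pdgfra at its bound, and the lines had 0.60 (line 1) and 0.85 (line 2), with KH2 at 0.22. Without background correction the median was 0.42, and with no filter on dim probes, which brings in undetected members, it was 0.15.

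Basement membrane genes were higher in both lines, led by Fbln2 and the chains of type IV collagen. Fbln2, a fibulin that binds laminin and nidogen, stood at 8.49 before and 9.90 after induction in line 1, and at 8.77 and 9.93 in line 2. The groups were well apart, and KH2 stayed at 9.35 and 9.37. Its mean change was 1.29 ± 0.17 (adjusted p = 0.0854), and its other probe differed by 0.85 and 1.14. Col4a1 read 9.19 and 10.84 in line 1 and 10.49 and 11.44 in line 2, and its partner Col4a2, which is transcribed from the same intergenic region in the opposite direction, 8.67 and 9.94, and 9.63 and 10.53. For both genes the induced arrays lay above both untreated ones, by a narrow margin between induced line 1 and untreated line 2. Col4a1 differed by 0.07 and Col4a2 by 0.50 in KH2. Their mean changes were 1.30 ± 0.21 and 1.08 ± 0.18 (both with an adjusted p of 0.123). The window around the gene start of Col4a1 (250 bases before to 50 after, RefSeq, GRCm38.p6, chr8:11312777-11313076, minus strand) is shown because the pair shares it; the capitals mark the 78 bases, chr8:11312777-11312854, that also lie in the window of Col4a2.
Col4a1: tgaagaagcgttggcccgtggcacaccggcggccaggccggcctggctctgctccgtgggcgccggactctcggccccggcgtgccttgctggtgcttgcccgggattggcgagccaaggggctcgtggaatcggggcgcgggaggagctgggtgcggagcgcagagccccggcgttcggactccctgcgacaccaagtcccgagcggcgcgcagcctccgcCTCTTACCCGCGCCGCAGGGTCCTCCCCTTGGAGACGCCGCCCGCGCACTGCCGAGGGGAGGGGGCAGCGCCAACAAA

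Lama1, the laminin chain of the earliest basement membranes, was uneven between the lines. It read 9.34 and 11.22 in line 1 and 11.41 and 11.78 in line 2. The untreated line 2 array already lay above the induced line 1 array, so the groups overlapped, and the mean change was 1.12 ± 0.32 (adjusted p = 0.246). Of 14 tested basement membrane genes, 11 were higher in both lines and 1 lower, against 29.6% and 31.1% of all genes tested. The lower one was the calcium-binding matrix gene Smoc1 (-0.34 and -0.65). The median change of the list was 0.70. By line it was 0.68 (line 1) and 0.50 (line 2), and KH2 had 0.05. In 12 of the 14 the untreated line 2 array was above the untreated line 1 array, against 50.1% of all genes tested, and in 10 of 14 untreated line 1 was the lowest of the 4 arrays, against 31.1%. With untreated line 1 left out the median was 0.41. The part of that array in the changes of line 1 was not tested.

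Genes that fold and modify collagen in the endoplasmic reticulum showed smaller changes. Serpinh1, the collagen chaperone, differed by 0.56 and 0.47, the lysyl hydroxylase genes Plod1 by 0.42 and 0.49 and Plod3 by 0.56 and 0.27, and the prolyl hydroxylase gene P3h1 by 0.31 and 0.50. KH2 differed by as much for Serpinh1 (0.58) and Plod1 (0.59). Of 14 tested genes 11 were higher in both lines and 1 lower, against 29.6% and 31.1% of all genes tested. The list had a median of 0.25 (0.15 when dim probes are kept), against 0.10 in KH2. General chaperones of the endoplasmic reticulum and the secretory pathway had a median of 0.03. Of these 14 genes 4 were higher and 4 lower in both lines, near the shares of all genes.

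Interstitial matrix genes were higher as well. Lox, which cross-links collagen and elastin, differed by 1.25 and 0.39, the matricellular gene Ccn1 by 0.60 and 0.93 and Col5a1, a fibrillar collagen, by 0.64 and 0.69. In KH2 these read -0.21, 0.75 and -0.02. Of 11 tested genes of the fibroblast and interstitial matrix list, 8 were higher in both lines and 0 lower. Over all genes the shares were 29.6% and 31.1%. The list had a median of 0.59 for line 1, 0.45 for line 2 and -0.03 for KH2. Thbs1 is among the 8, but it entered only through the induced arrays, being below detection on both untreated ones, and lends the count no support. The median over both lines was 0.53, and it was 0.34 without background correction and 0.11 with no filter on dim probes. Of the fibroblast and feeder cell markers, Col1a2, Col3a1, Postn, Lum and Dcn were detected on none of the 4 arrays. Thy1 was detected on all 4, and Col1a1 was dim (5.56 and 6.18 in line 1, 5.76 and 6.21 in line 2).

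More secreted proteases and their inhibitors were higher in both lines than lower, and Spink1 was the lower one. Htra1, a secreted serine protease that acts on matrix proteins, read 7.06 and 8.69 in line 1 and 9.54 and 10.55 in line 2. Within each line the induced array was higher, but untreated line 2 lay above induced line 1. Its mean change was 1.32 ± 0.20 (adjusted p = 0.104), with 0.60 in KH2. The other tested probe of Htra1 differed by 1.71 and 0.70, under 2-fold in line 2, and by 0.79 in KH2. Timp3, a matrix-bound inhibitor of metalloproteases, differed by 1.12 and 0.68 and Plau, the urokinase gene, by 0.68 and 0.92, with -0.05 and 0.00 in KH2.

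Spink1, which encodes a secreted trypsin inhibitor, had the largest decrease that both lines shared, by the smaller of its changes. Line 1 had 9.56 untreated and 8.10 induced, and line 2 had 10.68 and 8.58. Both induced arrays lay below both untreated arrays, and KH2 read 9.62 and 9.86. The mean change of Spink1 was -1.78 ± 0.20 (adjusted p = 0.0779). Of 14 tested genes in the list, 9 were higher in both lines and 1, Spink1, was lower, against 29.6% and 31.1% of all genes. The median was 0.34, with 0.52 in line 1 and 0.21 in line 2, and 0.10 with untreated line 1 left out.

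Receptors for the matrix had a lower median than basement membrane genes. Itga11, an integrin chain that binds fibrillar collagen, stood out: it read 6.98 and 8.04 in line 1 and 7.05 and 8.06 in line 2, a near equal shift in both, with a mean change of 1.03 ± 0.16 (adjusted p = 0.119) and 0.31 in KH2. It was not on the list of integrins and matrix receptors. Of the 14 tested genes of that list 8 were higher in both lines and 1 lower (29.6% and 31.1% of all genes). The lower one was the syndecan gene Sdc1 (-0.26 and -0.64, with -0.50 in KH2), though its other tested probe differed by -0.21 and 0.13. Dag1, the dystroglycan that anchors cells to laminin, differed by 0.36 and 0.52 and the fibronectin receptor gene Itga5 by 0.33 and 0.69, less than in KH2 (0.83). Line 1 had a list median of 0.17, line 2 one of 0.47 and KH2 one of 0.23. Over both lines it was 0.30, and 0.17 with no filter on dim probes.

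**Figure D2:**
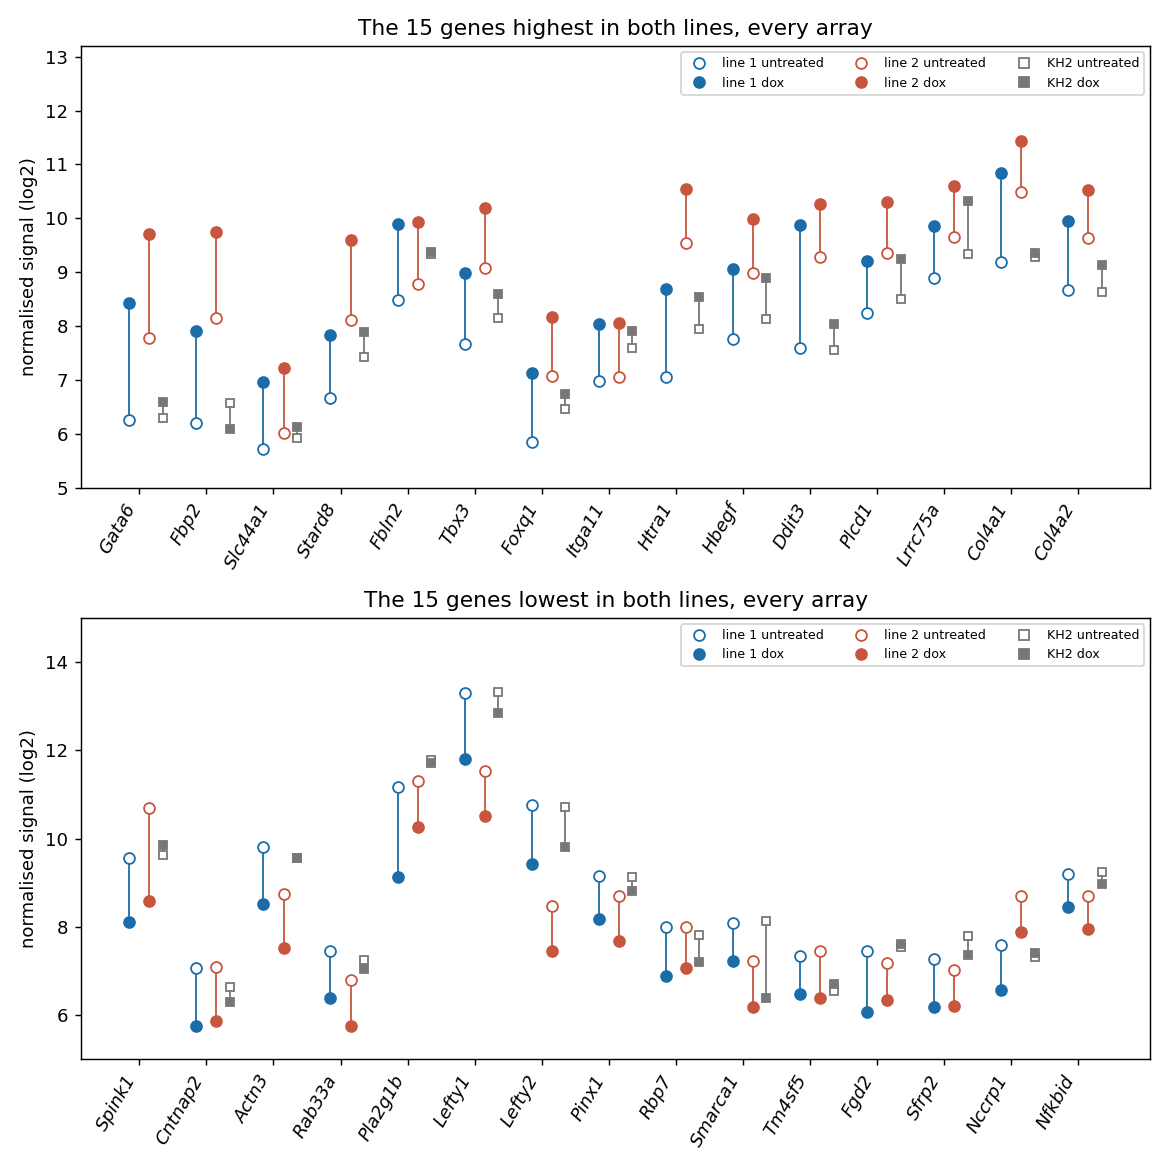
Normalised log2 signal on every array for the 15 genes highest (top) and the 15 genes lowest (bottom) in both lines, with untreated arrays as open and induced arrays as filled symbols, joined within a line, and KH2 in grey. The within-line changes run from 0.90 to 2.29 at the top and from -0.75 to -2.10 at the bottom, and untreated line 2 lies above untreated line 1 for all 15 genes at the top.

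In all 15 of the genes highest in both lines, the untreated line 2 array was above untreated line 1, as it was for 50.2% of the genes detected on all 4 arrays. With 1 untreated array per line, a difference between lines and a low array cannot be told apart, and genes chosen for a large change in line 1 favour a low untreated value there. Untreated KH2 lay below untreated line 2 in 13 of them. The change was larger in line 1 for 14 of the 15, Stard8 being the exception, and for 56.1% of the genes detected on all 4 arrays. For 10 of the 15 both induced arrays lay above both untreated arrays (16.2% of genes detected on all 4 arrays), from which nothing is read since the genes were chosen for their increase, and for Fbp2, Htra1, Plcd1, Stard8 and Tbx3 the groups overlapped across lines. KH2 was higher with doxycycline for 14 of the 15, by up to 0.98 (Lrrc75a), and lower for Fbp2, where 4390 of all 8408 genes tested were higher in KH2.

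In the list of EGF family ligands and receptors, Hbegf had the largest increase in each line. Hbegf, a membrane-anchored EGF receptor ligand, read 7.75 and 9.07 in line 1 and 8.99 and 9.99 in line 2, with induced line 1 barely above untreated line 2. Its mean change was 1.16 ± 0.17 (adjusted p = 0.104), and KH2 differed by 0.76. The receptor gene Egfr differed by 0.30 and 0.84, and Errfi1, a feedback inhibitor of the receptor, by 0.30 and 0.33. Of the 4 tested genes of this list 3 were higher in both lines (29.6% of all genes). Adam17, the sheddase that releases such ligands, read 0.07 and -0.38. The list median was 0.44, and 0.15 with no filter on dim probes.

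In the FGF and ERK pathway, the feedback phosphatase genes Dusp4 (1.37 and 0.46) and Dusp6 (0.42 and 0.48) and Phlda1 (0.62 and 1.25) were higher in both lines, and the early response gene Ier3 was lower in line 1 alone (-1.12 and 0.05). Of 11 tested genes 5 were higher in both and 1 lower (29.6% and 31.1% of all genes). The list had a median of 0.13 (0.066 when dim probes are kept). Stat3, which carries the LIF signal, differed by 0.60 and 0.58 and its feedback inhibitor Socs2 by -0.25 and -0.65, against 0.32 and -0.74 in KH2. Another tested probe of Stat3 differed by 0.59 and -0.04.

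In the Nodal pathway the pair of secreted Nodal inhibitors was lower. Lefty1 stood at 13.29 untreated and 11.80 induced for line 1, and at 11.53 and 10.51 for line 2. Lefty2 read 10.75 and 9.41 in line 1, and 8.47 and 7.46 in line 2. Each induced array lay below its own untreated array, but untreated line 2 was below induced line 1 for both genes, so the groups overlapped. Untreated KH2 stood at 13.32 for Lefty1 and 10.72 for Lefty2, close to untreated line 1. Mean changes were -1.26 ± 0.18 and -1.18 ± 0.17 (both with an adjusted p of 0.102), with -0.48 and -0.92 in KH2. Nodal itself differed by -0.05 and 0.08. Foxh1, the partner of Smad proteins in Nodal signalling, differed by 0.94 and 0.18 and the receptor gene Tgfbr2 by 0.48 and 0.69. Of 15 tested Nodal, Activin and TGF-beta pathway genes, 7 were lower in both lines and 3 higher (31.1% and 29.6% of all genes). The list median was -0.06.

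BMP genes had a median of 0.21 over 12 tested members (0.095 when dim probes are kept). Of these members 5 were higher and 3 lower in both lines (29.6% and 31.1% of all genes). The BMP antagonist gene Chrd differed by 0.82 and 0.29 and the inhibitory Smad gene Smad6 by 0.43 and 0.69. Id4, an inhibitor of bHLH factors, read 4.95 and 6.45 in line 1, where the untreated array was below detection, and 6.51 and 6.82 in line 2. Wnt pathway genes showed no common direction, with 1 of 11 higher and 3 lower in both lines (29.6% and 31.1% of all genes). Their median was 0.05.

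Fbp2, a muscle-type fructose bisphosphatase of gluconeogenesis, was second to Gata6 among genes higher in both lines, ranked by the smaller change. Line 1 had 6.20 untreated and 7.91 induced, and line 2 had 8.14 and 9.74. The shift was of like size in both lines, yet untreated line 2 lay above induced line 1. In KH2 it was lower with the drug, at 6.57 and 6.10. The mean change of Fbp2 was 1.65 ± 0.16 (adjusted p = 0.0737).

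Slc44a1, a choline transporter gene, read 5.72 and 6.96 in line 1 and 6.01 and 7.23 in line 2, with the groups apart and a mean change of 1.23 ± 0.16 (adjusted p = 0.0854). Stard8 read 6.67 and 7.83 in line 1 and 8.11 and 9.60 in line 2, a mean change of 1.33 ± 0.17 (adjusted p = 0.0854), and its other probe differed by 0.97 and 1.20. Plcd1, a phospholipase C, differed by 0.97 and 0.96, with 0.76 in KH2. Lrrc75a, whose other probes differed by 0.33 and 0.81 and by 0.88 and 0.79, differed by 0.98 and 0.95, and by as much in KH2 (0.98).

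Genes of glycolysis and glucose uptake, a list that holds Fbp2, showed no common direction. Ldha, the lactate dehydrogenase chain, differed by -0.57 and -0.54, and Egln3, an oxygen-sensing prolyl hydroxylase, by -1.38 and 0.06. Of 19 tested genes 4 were higher and 5 lower in both lines (29.6% and 31.1% of all genes), with a median of -0.03. Cholesterol synthesis genes were lower in line 1, with a median of -0.40 over 18 tested genes, and had a median of 0.00 in line 2 and -0.21 in KH2. Stard4, a sterol transporter, differed by -0.89 and -0.46, Insig1, the sterol sensor partner, by -1.08 and -0.26, and Hmgcs1, an enzyme early in the pathway, by -0.79 and -0.24. KH2 read -0.66, -0.56 and -0.83 for these genes. The median of the list was -0.06 both with untreated line 1 left out and with the KH2 change taken off.

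Below Spink1, the genes lowest in both lines had varied functions. Cntnap2, a neurexin-family adhesion protein, read 7.08 and 5.75 in line 1 and 7.09 and 5.86 in line 2, near the detection limit after induction. Actn3, the alpha-actinin of fast muscle fibres, read 9.80 and 8.52 in line 1 and 8.75 and 7.52 in line 2, and 9.56 on both KH2 arrays. Pla2g1b, a secreted phospholipase, read 11.16 and 9.12 in line 1 and 11.30 and 10.27 in line 2. For all of these the induced arrays lay below both untreated arrays. The mean changes were -1.28 ± 0.16 for Cntnap2, -1.26 ± 0.16 for Actn3 (both with an adjusted p of 0.0854) and -1.53 ± 0.25 for Pla2g1b (adjusted p = 0.123). The other probes of Actn3 differed by -1.47 and -1.40, and by -1.29 and -0.55.

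Rab33a, a vesicle-transport GTPase, differed by -1.06 and -1.04, Pinx1, a telomerase inhibitor, by -0.96 and -1.02, and Rbp7, a retinoid-binding protein, by -1.11 and -0.91. Sfrp2, a secreted Wnt antagonist, differed by -1.08 and -0.83 and Fgd2, an exchange factor for Cdc42, by -1.38 and -0.83. Tm4sf5, a tetraspanin-like protein, differed by -0.86 and -1.08, Nccrp1 by -1.03 and -0.82 and Nfkbid, a nuclear inhibitor of NF-kappaB, by -0.76 and -0.75. Smarca1, a chromatin remodeller, differed by -0.87 and -1.05, but by -1.74 in KH2. The adjusted p of the 15 lowest genes ran from 0.0779 to 0.194. In 12 of the 15 both induced arrays lay below both untreated arrays (17.0% of genes detected on all 4 arrays), again a result of how they were chosen, and the groups overlapped for Lefty1, Lefty2 and Nccrp1. KH2 was lower with the drug for 10 of the 15, where 4390 of all 8408 genes tested were higher in KH2.

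Both induced arrays but neither untreated array detected 44 genes (0.523% of the genes tested), and 107 (1.27%) showed the reverse. These genes entered the fit only through the arrays where they were high, so their p-values are given for completeness and support nothing. Those on a gene list, namely Pdgfra, Thbs1, Apom, Dlk1, Sox4, Myc and Msx1, stand in its counts, to which they lend no support. Beside Pdgfra, those that appeared included Slc39a5, a zinc transporter (at least 1.55-fold, 6.28 against 5.54, adjusted p = 0.194), Lrrc15, a leucine-rich repeat membrane protein (at least 1.47-fold, 6.19 against 5.18, adjusted p = 0.194), and Thbs1, a matricellular thrombospondin (at least 1.45-fold, 6.18 against 5.46, adjusted p = 0.199). Nrg1, an EGF-family ligand, was at least 1.38-fold higher (6.10 against 5.43, adjusted p = 0.212). The 12 genes that appeared and are shown by array had bounds of 1.16- to 1.64-fold. On the KH2 arrays 3 of these 12 were detected with and without the drug.

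Among genes that dropped out, Dlk1, an imprinted Notch-related surface protein, had the largest bound. Without induction it was detected at 7.27 (line 1) and 6.24 (line 2), and with induction it was undetected at 5.18 and 5.39, at least 2.07-fold lower (5.28 against 6.76, adjusted p = 0.169). KH2 kept it, at 7.38 without and 7.69 with the drug. Aldh3a1, an aldehyde dehydrogenase, was at least 1.83-fold lower (5.37 against 6.58, adjusted p = 0.177), Slc25a41, a mitochondrial carrier, at least 1.82-fold (5.48 against 6.57, adjusted p = 0.132) and Rasgrp1, an activator of Ras, at least 1.82-fold (5.22 against 6.56, adjusted p = 0.129). Zscan5b, a zinc finger gene, was at least 1.28-fold lower (4.85 against 6.06, adjusted p = 0.0854). On the KH2 arrays 7 of the 12 dropped genes shown were detected with and without the drug.

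**Figure D3:**
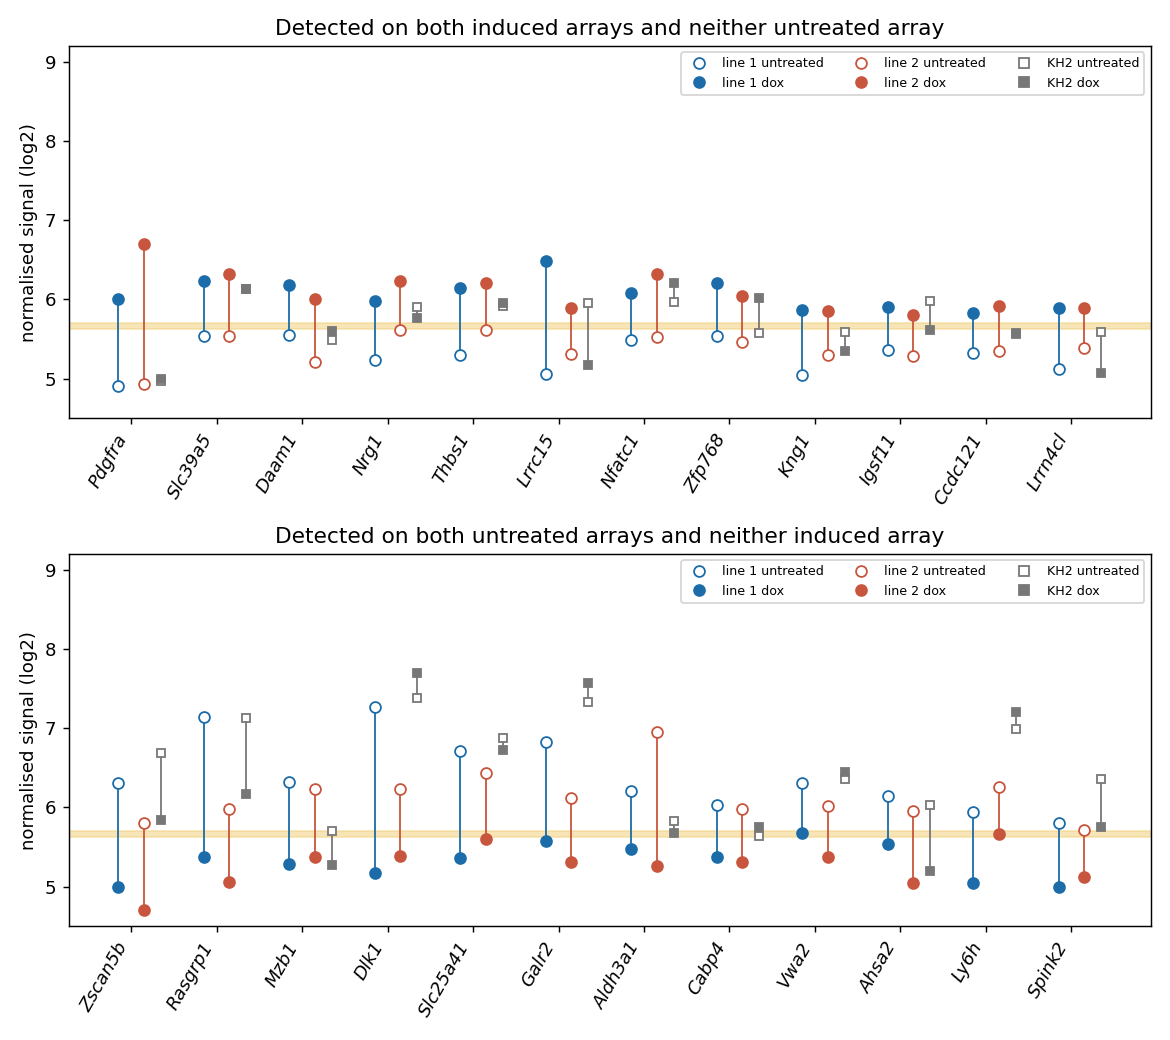
Normalised log2 signal on every array for 12 genes detected on both induced arrays and neither untreated array (top) and 12 genes with the reverse pattern (bottom), with the yellow band at the lowest detected signals of the 4 arrays (5.62 to 5.70). Pdgfra reaches 6.71 in induced line 2 and Dlk1 stands at 7.27 in untreated line 1.

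Imprinted genes went both ways. Phlda2, which limits placental growth, differed by -1.02 and -0.74, with 0.10 in KH2, and Cdkn1c, an inhibitor of cyclin-dependent kinases, by -1.25 and -0.50, with -0.29 in KH2. Phlda2 read 13.05 and 12.03 in line 1 and 12.38 and 11.64 in line 2, so that both induced arrays lay below both untreated arrays. Nnat, a proteolipid of neurons, was lower in line 1 (-1.23) and near level in line 2 (-0.13). Of 14 tested imprinted genes, 6 were lower and 4 higher in both lines (31.1% and 29.6% of all genes). The list median was -0.13 (-0.0028 with no filter on dim probes). The growth factor gene Igf2 differed by -0.98 and -0.21, and Igf2r, which clears it, by 0.17 and 0.44. The list holds maternally and paternally expressed genes together.

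The transcripts of pluripotency factors had no common direction. Of 20 tested genes 5 were higher and 7 lower in both lines (29.6% and 31.1% of all genes), with a median of 0.01. Apart from Tbx3 and Stat3, the nuclear receptor gene Nr5a2, an activator of Pou5f1, was lower (-0.58 and -0.68, with -0.36 in KH2). Dppa3, which protects methylation in the early embryo, was lower mainly in line 2 (-0.23 and -1.39). Among the 8 tested primed epiblast genes, Otx2 differed by 0.88 and 0.25 and by -1.26 in KH2, and Pou3f1 by -0.80 and -0.06. Sox4 crossed the detection limit and was at least 1.40-fold lower with induction (5.62 against 6.19, adjusted p = 0.307).

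Actins and contractile genes were higher in both lines for 11 of 15 tested genes, with 1, Actn3, lower (29.6% and 31.1% of all genes). Acta2, smooth muscle actin, differed by 0.73 and 0.66 and Tagln, its partner transgelin, by 0.50 and 0.69. KH2 differed by 0.34 and 0.77 for these, and by 0.89 to 1.11 for the other Acta2 probes. List medians were 0.33 (line 1), 0.37 (line 2) and 0.19 (KH2), and the median over both lines was -0.01 with untreated line 1 left out. The number of members higher in KH2 was 12 of 15, against 4390 of all 8408 genes tested.

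**Figure D4:**
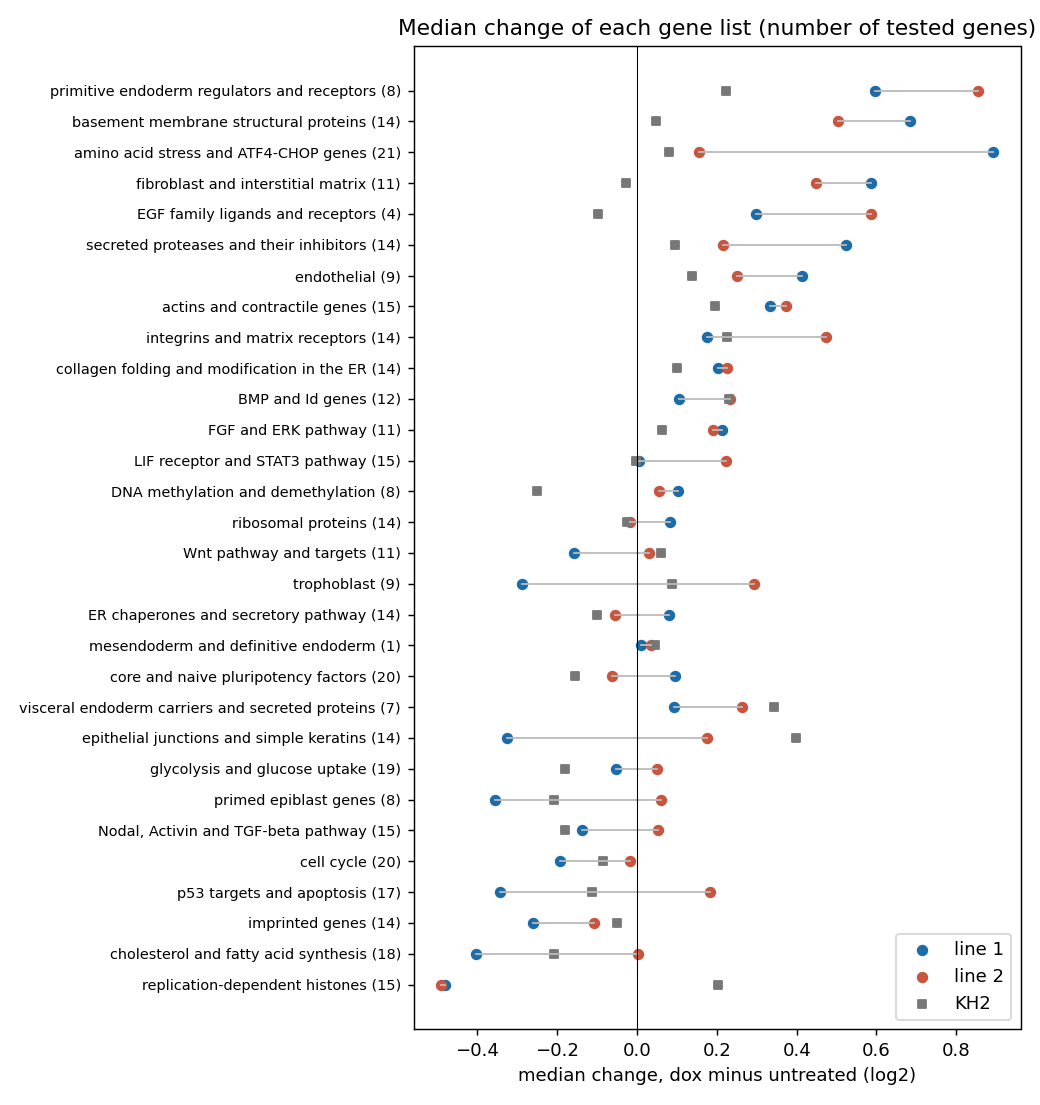
Median change of each of 30 gene lists over its tested genes (number in brackets), in log2 units, for line 1 (blue), line 2 (red) and KH2 (grey squares). The primitive endoderm list lies highest in line 2 at 0.85, the replication-dependent histones lie lowest in both at -0.48 and -0.49 with KH2 at 0.20, and the amino acid stress list is at 0.89 in line 1 and 0.16 in line 2.

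Amino acid stress genes were higher in line 1 above all. These genes are the targets of Atf4 and of Ddit3 (CHOP), the transcription factors that cells make when amino acids run short or protein folding fails. Ddit3 stood at 7.59 untreated and 9.88 induced for line 1, and at 9.28 and 10.26 for line 2, with a mean change of 1.63 ± 0.29 (adjusted p = 0.142). Trib3, a pseudokinase that feeds back on Atf4, read 7.99 and 9.76 in line 1 and 9.04 and 9.44 in line 2. KH2 differed by 0.48 for Ddit3 and by 0.73 for Trib3, where line 2 differed by 0.98 and 0.40. For both genes untreated line 1 was the lowest of the 4 arrays, and the induced arrays lay above both untreated ones.

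Of the other members, Atf3 read 5.08 and 6.82 in line 1, where the untreated array was below detection, and 5.99 and 6.64 in line 2. In KH2 Atf3 differed by 0.40. Vldlr, a lipoprotein receptor, differed by 1.52 and 0.58, with -0.14 in KH2. Its other tested probes differed by 1.44 and 0.11, and by 1.41 and 0.29. Sesn2, a stress-induced regulator of mTORC1, differed by 1.23 and 0.51, with 0.08 in KH2. Chac1, which degrades glutathione, read 11.53 and 13.50 in line 1 but 13.09 and 12.97 in line 2, so only line 1 was higher. Of 21 tested genes 16 were higher in both lines and 0 lower in both (29.6% and 31.1% of all genes). The larger change was in line 1 for 20 of 21, as it was for 55.9% of all genes tested. An unadjusted p under 0.05 was reached by 11 of the 21 as higher, against 7.53% of all genes. Line 1 had a median of 0.89, line 2 one of 0.16 and KH2 one of 0.08. In KH2 12 of the 21 were higher with the drug, as were 4390 of all 8408 genes tested. In 14 of the 21 untreated line 1 was the lowest of the 4 arrays, against 31.1% of all genes, and without that array the median was 0.43.

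The promoters of this group are shown because some of its genes share a short element. The element TGATGNAA, searched on both strands in windows of 250 bases before to 50 after the gene start (RefSeq, GRCm38.p6), is the one through which Atf4 with C/EBP partners acts. It was found in 6 of the 18 list genes with a window (33.3%), namely Asns, Atf3, Chac1, Nupr1, Trib3 and Vldlr, and in 4.51% of all 27025 windows. The list was written as targets of Atf4 and Ddit3, so a larger share follows from how it was made and is no result of these data. Capitals mark the match, which lies on the minus strand in each window shown, with its first base, counted from the gene start as base 1, at -193 in Chac1 (chr2:119350992-119351291, plus strand), at 15 in Trib3 (chr2:152344011-152344310, minus strand) and at -110 in Atf3 (chr1:191183284-191183583, minus strand).
Chac1: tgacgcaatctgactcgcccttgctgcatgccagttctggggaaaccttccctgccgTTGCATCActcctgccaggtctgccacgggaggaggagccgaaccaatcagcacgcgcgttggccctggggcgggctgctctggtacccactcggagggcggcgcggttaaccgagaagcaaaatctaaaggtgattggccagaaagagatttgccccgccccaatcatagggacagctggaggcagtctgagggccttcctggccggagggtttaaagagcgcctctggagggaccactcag
Trib3: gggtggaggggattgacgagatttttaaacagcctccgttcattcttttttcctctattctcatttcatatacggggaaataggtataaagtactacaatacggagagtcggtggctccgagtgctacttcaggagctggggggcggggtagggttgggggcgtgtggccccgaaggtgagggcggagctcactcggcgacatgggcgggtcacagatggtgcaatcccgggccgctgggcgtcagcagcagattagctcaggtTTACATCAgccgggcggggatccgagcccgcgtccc
Atf3: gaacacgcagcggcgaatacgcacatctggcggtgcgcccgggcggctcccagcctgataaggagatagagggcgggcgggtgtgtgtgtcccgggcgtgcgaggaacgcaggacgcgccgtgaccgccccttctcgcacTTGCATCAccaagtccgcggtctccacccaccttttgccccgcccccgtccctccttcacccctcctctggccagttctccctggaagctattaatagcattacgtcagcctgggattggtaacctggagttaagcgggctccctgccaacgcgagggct

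Replication-dependent histone genes were lower in both lines and higher in KH2. They supply the histones of newly made chromatin and are transcribed in S phase. H2ac4 stood at 7.81 untreated and 7.19 induced for line 1, and at 8.05 and 7.27 for line 2, against 8.16 and 8.24 in KH2. H4c6 read 9.50 and 8.79 in line 1, and 9.52 and 8.80 in line 2, a near equal shift, against 9.59 and 9.76 in KH2. Both induced arrays lay below both untreated arrays for each of these genes.

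H3c1 differed by -0.53 and -0.73 and H4c3 by -0.57 and -1.48, the latter below detection on the induced line 2 array. Of 15 tested genes 10 were lower and 3 higher in both lines (31.1% and 29.6% of all genes). An unadjusted p under 0.05 was reached by 8 as lower, against 6.74% of all genes. List medians were -0.48 (line 1), -0.49 (line 2) and 0.20 (KH2). In KH2 all 15 were higher with the drug, as were 4390 of all 8408 genes tested. With the induced line 1 array or the untreated line 2 array left out, which leaves the lines unpaired, the median was -0.10 and -0.12. Histone genes of 1 class are near-identical copies, so a probe may read several of them, and the values of single genes are uncertain. Cell cycle genes had no common direction: Ccnd3, a G1 cyclin, differed by 0.64 and 0.52 (0.55 in KH2), its other probes by 0.97 and 0.74 and by -0.10 in each line, and Pcna, the replication clamp, by -0.48 and -0.32, with a median of -0.07 over 20 tested genes.

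Histone promoters are compact and commonly hold the elements CCAAT and TATAAA. Searched on both strands in the same windows, CCAAT was found in 9 of 12 histone genes with a window (75.0%) and in 41.1% of all windows, and TATAAA in 9 of 12 (75.0%) and in 15.7%. Both shares belong to the gene class and are no result of these data. The windows of H2ac4 (chr13:23750838-23751137, plus strand) and H4c3 (chr13:23698409-23698708, minus strand) are shown with the matches in capitals, none of which overlap. In H2ac4 they are a minus-strand CCAAT with its first base at -97 from the gene start, a plus-strand CCAAT at -78 and a TATAAA at -41, and in H4c3 plus-strand CCAAT matches at -146 and -126.
H2ac4: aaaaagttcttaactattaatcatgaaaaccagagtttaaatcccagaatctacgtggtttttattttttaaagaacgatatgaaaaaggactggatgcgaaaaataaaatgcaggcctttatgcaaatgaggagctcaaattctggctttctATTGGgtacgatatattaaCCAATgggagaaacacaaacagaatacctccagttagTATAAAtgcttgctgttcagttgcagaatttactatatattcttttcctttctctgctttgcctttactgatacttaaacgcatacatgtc
H4c3: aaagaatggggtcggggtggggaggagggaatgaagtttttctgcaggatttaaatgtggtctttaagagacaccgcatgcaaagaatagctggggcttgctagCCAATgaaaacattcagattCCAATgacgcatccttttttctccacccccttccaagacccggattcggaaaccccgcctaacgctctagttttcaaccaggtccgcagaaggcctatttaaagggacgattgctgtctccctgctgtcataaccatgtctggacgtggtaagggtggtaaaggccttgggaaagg

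For comparison, ACAAT, the core that Sox proteins bind, was found in 0 of the 10 windows available for the 15 highest genes, in 3 of the 9 for the 15 lowest (Cntnap2, Rbp7 and Tm4sf5) and in 34.4% of all windows. GATAA, the core that GATA factors bind, was found in 1 of 10 (Ddit3), in 1 of 9 (Tm4sf5) and in 28.4%. These short windows hold the promoter only, and nothing follows from a match or its lack about binding.

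**Figure D5:**
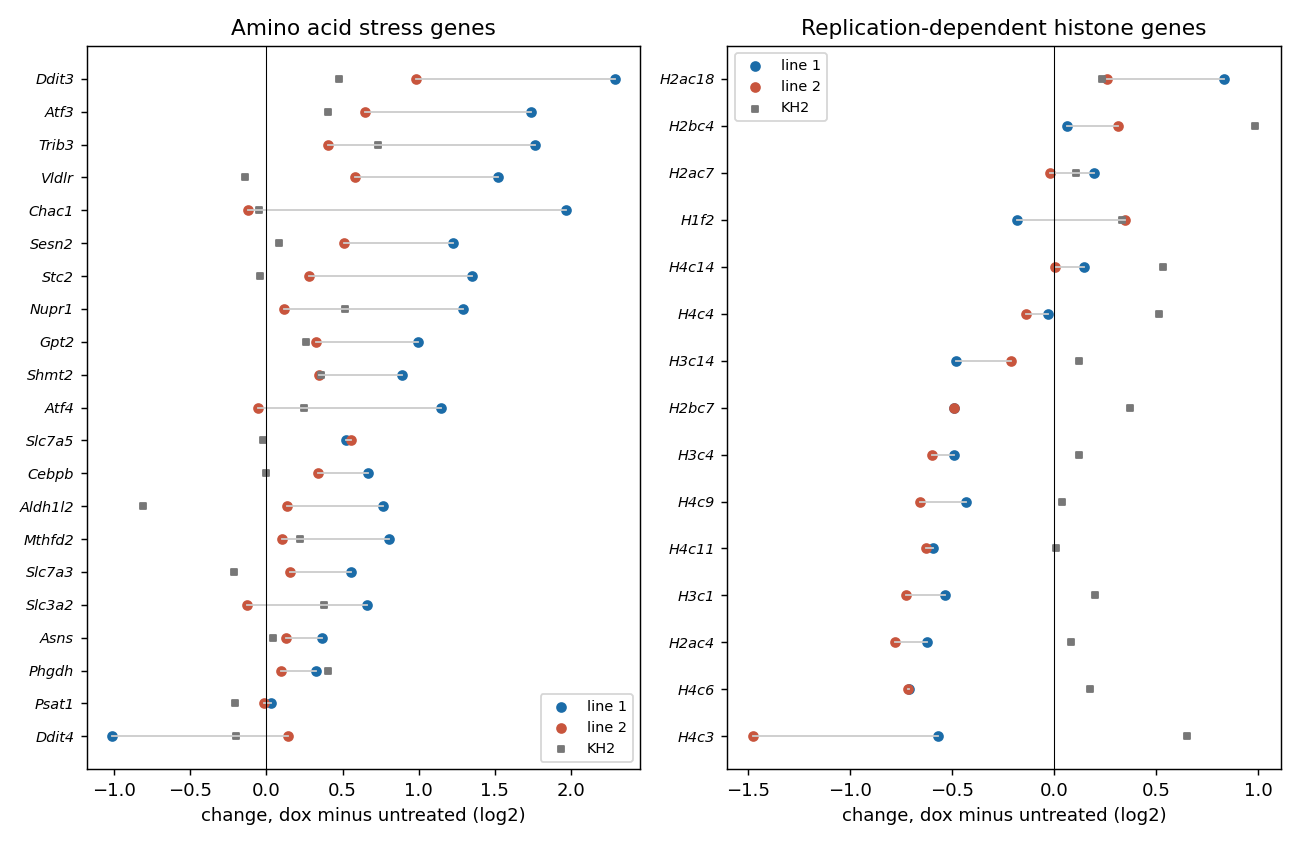
Change of each tested gene of the amino acid stress list (left) and of the replication-dependent histones (right), in log2 units of induced minus untreated, in line 1 (blue), line 2 (red) and KH2 (grey squares). On the left the line 1 points reach 2.29 and exceed those of line 2 in size for 20 of 21 genes (55.9% of all genes tested). On the right 10 of 15 genes are below 0 in both lines (31.1% of all genes tested), while every KH2 point is above 0 (4390 of 8408 genes tested).

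The lines shared a direction for 4612 of the 7557 genes detected on all 4 arrays (61.0%). Across these genes the changes of line 1 and line 2 correlated with Pearson's r = 0.349, and those of line 1 and line 2 with KH2 with r = 0.188 and 0.293. These are descriptions across genes, which are not independent replicates, and all arrays shared 1 chip and 1 normalisation. Changes were larger in line 1: they had an SD of 0.39, against 0.31 in line 2 and 0.41 in KH2, and 107 genes were at least 2-fold higher and 56 at least 2-fold lower in it, against 26 and 22 in line 2. With 2 lines, a sign-flip test of a single gene cannot give a two-sided p below 0.5.

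Some genes went opposite ways in the lines. Pga5, a pepsinogen, differed by 1.09 in line 1 and -1.70 in line 2, and Cpsf4l by 1.21 and -0.99. Gbp2, an interferon-induced GTPase, differed by -1.94 and 0.40, and Plekha2 by -1.17 and 0.66. Ptpn18, a tyrosine phosphatase that acts on EGF-family receptors, differed by 1.99 and -0.03, where its 4 arrays read 6.05 and 8.04 in line 1 and 8.59 and 8.56 in line 2. Of these 4 arrays untreated line 1 was thus the 1 low array for Ptpn18, as it was for Chac1. Without and with the drug, KH2 read 6.75 and 6.78 for Ptpn18, nearer to untreated line 1 than to line 2. For Chac1 KH2 read 12.70 and 12.65. Apolipoprotein genes gave no common direction either: Apoe, a lipid carrier of visceral endoderm and other cells, was higher in both lines (0.78 and 0.51, with 0.34 in KH2), Apoc2 differed by 0.20 and -0.48, and Apod by 1.15 and -0.71. The visceral endoderm list had a median of -0.01. Of its 7 tested genes 2 were higher in both lines and 0 lower (29.6% and 31.1% of all genes). The 2 were Apoe and Apom, and Apom entered only through the induced arrays, where alone it was detected, so it lends the count no support.

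Endothelial genes, part of which parietal endoderm shares through Thbd, were higher in both lines for 5 of 9 tested genes and lower for 2. Over all genes the shares were 29.6% and 31.1%. Pecam1, an adhesion molecule that embryonic stem cells also carry, differed by 0.41 and 0.25, the VEGF receptor gene Flt1 by 0.78 and 0.35, and the transcription factor gene Ets1 by 0.53 in each line. KH2 had -0.08, 0.04 and -0.24 for these. The list median was 0.32, and 0.019 with no filter on dim probes, and it was -0.042 and -0.087 with untreated line 1 or induced line 2 left out.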

How the data were processed

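Trizol-extracted RNA was amplified and hybridised to Illumina bead arrays, per the labels' protocols. The authors deposited a table of raw bead intensity per probe without normalisation, with a detection p-value beside each value, per the file headers. A bead number, kept as a score per probe, stands beside them in the deposited table. They also deposited processed intensity values; BeadStudio is named in the submitters' processing notes, and the method of normalisation is not given in the sources used here. From the raw intensities, normexp background correction, with the negative-control level inferred from the detection p-values, an offset of 16, quantile normalisation over 6 arrays and log2 were applied (neqc, limma 3.58.1, R 4.3.3). No column of other samples was used.

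The fit was limma with the line as a block on the 4 arrays of the inducible lines, adjusted with Benjamini-Hochberg over 12072 probes at a threshold of 0.05. Arrays pair because they are the same cell line, and the deviations of the induced and untreated arrays from their group means correlated with r = 0.517 over 12072 probes. There was 1 array per line and condition, so the number of arrays limits the precision and spread between cultures of a line was not measured. Gene symbols came from the platform annotation, updated through Entrez numbers, with 23978 of 25697 probes having 1 symbol. Each gene was represented by the tested probe of highest mean signal. For a gene below detection in a group, the bound sets the bright group's mean against the mean of, per array, the higher of the lowest detected signal and its own signal.

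Named genes were Gata6, Pdgfra, Col4a1, Spink1 and Lefty1, the 15 highest and 15 lowest by the smaller of the within-line changes among genes detected on all 4 arrays, 12 genes crossing detection in each direction, the 8 furthest apart between lines, and up to 4 genes of each of 30 lists. Smoc1, Nodal, Igf2 and Igf2r fall outside this rule, as do markers given only as detected, and were named after their values were seen. The members and lists were chosen with earlier results of these data known. The fit was tested on simulated data with known changes. Other normalisations, filters, probe rules and sets of arrays were tried, using Python 3.11.15 with pandas 2.3.3 and matplotlib 3.10.9 for the tables and plots.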

Additional observations from a re-analysis of the deposited data

Results flagged for a closer look

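A first set of genes went opposite ways in the inducible lines, and the differences between the lines were not tested, since each is a difference of single arrays. The change in line 1 minus the change in line 2 was 2.79 for Pga5, 2.20 for Cpsf4l, 2.09 for Chac1, 2.02 for Ptpn18, 1.86 for Tmem42 and 1.85 for Apod. It was -2.34 for Gbp2 and -1.83 for Plekha2. Tmem42, a membrane protein, differed by 0.72 in line 1 and -1.14 in line 2. Medians of gene lists also had opposite signs, at -0.53 (line 1 minus line 2) for p53 targets and apoptosis, -0.50 for epithelial junctions and simple keratins and -0.58 for trophoblast genes.

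A second set went one way in both inducible lines and the other way in KH2, again without a test of the difference. The median of the replication-dependent histones was lower by -0.69 than that of KH2. The mean change of the lines minus the change of KH2 was 2.13 for Fbp2, 1.80 for Lrrc15, 1.15 for Lrrn4cl and 0.90 for Igsf11. For Dlk1 it was -1.79. Lrrc15, Lrrn4cl and Igsf11 were below detection on both untreated arrays, and Dlk1 on both induced arrays, so these differences are taken against background and are not measured sizes. Within the lines the bounds were at least 1.47-, 1.19- and 1.16-fold higher, and at least 2.07-fold lower for Dlk1.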

How the results depend on the processing

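The count of 1 probe past the threshold moved with almost every choice. It was 0 with no replicate block, where the smallest adjusted p was 0.958 and 519 probes had an unadjusted p under 0.05. It was also 0 with the authors' processed values, with no filter on dim probes, and with the KH2 change taken off over 6 arrays (1579, 2707 and 1247 probes at an unadjusted p under 0.05), and 0 to 0 when any 1 array was left out (279 to 1149 such probes). Leaving out an array also drops the line block, which alone gives 0, so the 2 choices cannot be told apart there. It was 27 over the 10727 probes detected on all 4 arrays, 98 with trend and robust moderation and 315 with no background correction, and 1 with normalisation over 4 arrays. Gata6 was called under 4 of 8 alternatives. The cause was not tested. Genes 2-fold higher and lower in both lines numbered 4 and 1 with no background correction, and 34 and 17 with the KH2 change taken off.

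With the KH2 change taken off, signs turned for Adam17 (0.47), Egln3 (0.095), Foxh1 (-0.0031), Hmgcs1 (0.32), Itga5 (-0.32), Lrrc75a (-0.021), Plod1 (-0.14), Pou3f1 (0.16), Sdc1 (0.057), Serpinh1 (-0.066), Smarca1 (0.78), Socs2 (0.29) and Tagln (-0.18). With the KH2 change taken off, the median turned for Nodal, Activin and TGF-beta pathway (0.068), Wnt pathway and targets (-0.11), primed epiblast genes (0.14), p53 targets and apoptosis (0.078) and mesendoderm and definitive endoderm (-0.021). With no filter on dim probes, the median turned for endoplasmic reticulum chaperones (-0.079), Wnt pathway and targets (-0.13) and mesendoderm and definitive endoderm (-0.039). With the authors' values, the median turned for visceral endoderm carriers and secreted proteins (0.014) and glycolysis and glucose uptake (0.022). With the mean over probes, the median turned for Wnt pathway and targets (-0.014) and core and naive pluripotency factors (-0.016).

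With a line, or an array and with it the block, left out, means ran from -0.029 to 1.42 for Acta2, -0.38 to 0.074 for Adam17, -0.48 to 0.20 for Apoc2, -1.38 to 0.064 for Egln3, -0.042 to 1.10 for Ets1, -0.30 to 1.43 for Flt1, -1.12 to 0.053 for Ier3, -1.71 to 0.35 for Nnat and -0.13 to 1.32 for Tagln. List medians ran from -0.055 to 0.16 for endoplasmic reticulum chaperones, -0.10 to 0.43 for visceral endoderm carriers and secreted proteins, -0.17 to 0.054 for Nodal, Activin and TGF-beta pathway, -0.047 to 0.49 for BMP and Id genes, -0.16 to 0.096 for Wnt pathway and targets, -0.17 to 0.20 for core and naive pluripotency factors, -0.35 to 0.0605 for primed epiblast genes, -0.41 to 0.0029 for cholesterol and fatty acid synthesis, -0.053 to 0.069 for glycolysis and glucose uptake, -0.19 to 0.0075 for cell cycle, -0.34 to 0.18 for p53 targets and apoptosis, -0.015 to 0.56 for actins and contractile genes, -0.32 to 0.18 for epithelial junctions and simple keratins, -0.29 to 0.30 for trophoblast, -0.023 to 0.082 for ribosomal proteins and -0.087 to 0.48 for endothelial. Signals close to the lowest detected signal (5.62 to 5.70) are the least certain.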
